A study of Mus musculus with 6 samples.

Results

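The 7 genes described here are the MHC class II presentation genes *H2-Aa*, *H2-Ab1*, *H2-Eb1*, *H2-DMa*, *H2-DMb1*, *Cd74* and *Ciita*. They were chosen by gene name, and each of the 7 matched 1 of the 34745 genes in the deposited table. RNA-seq was performed on cardiac fibroblasts of the left ventricular myocardium after myocardial infarction (MI), which was produced by permanently tying off a coronary artery, the left anterior descending. The 3 KO-labelled libraries came from KDM5B-knockout mice, in which CRISPR/Cas9 removed the part of *Kdm5b* that encodes the JmjC domain, and the knockout was not restricted to fibroblasts. The 3 WT-labelled libraries came from their wild-type littermates, and the strain named for wild-type mice is C57BL/6. The mice of both labels were males of 8 to 10 weeks, and the cells were taken on Day 7 after MI. The comparison asks which transcripts differ when KDM5B, an enzyme that removes methyl groups from lysine 4 of histone H3, is lost. The labels do not say whether the 3 libraries of a group came from separate animals, so p-values measure only the spread between these libraries.

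MHC class II molecules carry peptides from engulfed or cell surface proteins to the outside of the cell, where CD4+ T cells read them. An α chain and a β chain pair in the endoplasmic reticulum around the invariant chain, which fills the peptide groove until lysosomal proteases remove it and H2-DM exchanges the last fragment for a peptide. Dendritic cells, B cells and macrophages make these molecules at rest, and many other cells, fibroblasts included, can do so after interferon-γ (IFN-γ), in each case under the coactivator CIITA.

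Between 12025403 and 15329427 counts per library were assigned to genes, so that 3 counts, used here as a floor, corresponded to 0.249 CPM (counts scaled to the library total) in the smallest library. *Kdm5b* itself had a log2 fold change of -0.22, KO minus WT, with an adjusted p of 0.0574 from edgeR, above the threshold of 0.05. It passed the threshold with upper quartile scaling (0.0324) and without the first library labelled WT (0.0188), and on macrophage scaling, the scaling of each library on its macrophage markers, the sign turned (0.15). The knockout is a deletion within the gene, and counts over the whole gene do not check the deleted part. Fibroblast markers checked the labelled cell type, and *Col1a1* was at 12481 ± 1102 CPM (SD, n = 3) in the KO-labelled libraries and 16980 ± 1087 in the WT-labelled ones. Markers of other cells were present as well. The 12 macrophage markers summed to 1283 to 1315 CPM in the KO-labelled libraries and 1576 to 1674 in the WT-labelled ones. The 8 endothelial markers summed to 1345 to 1963 and 249 to 258 CPM, and the 8 cardiomyocyte markers to 567 to 628 and 796 to 803. In these bulk samples fewer cells of a type and less RNA per cell cannot be told apart.

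CIITA does not touch DNA itself but works through proteins bound to a group of short motifs, the X and Y boxes, a fixed distance apart in the promoters of these genes. A set of 4 promoter stretches is shown because they hold, or in part hold, this layout in genes of unlike level. The sequences are from RefSeq (GRCm38.p6), end upstream of the transcription start, and run 5′ to 3′ on the strand of the gene. The capitals mark AACNNNTG, written here for the core of the X box, and GATTGG, written for the Y box, letters that were chosen with these promoters in view.
*H2-Eb1*, chr17:34305770-34305820, + strand: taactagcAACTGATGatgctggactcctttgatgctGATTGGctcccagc
*H2-Eb2*, chr17:34325537-34325587, + strand: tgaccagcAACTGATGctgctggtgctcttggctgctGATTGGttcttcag
*H2-Ob*, chr17:34238812-34238860, + strand: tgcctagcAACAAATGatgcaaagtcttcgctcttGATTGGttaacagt
*H2-Aa*, chr17:34287859-34287920, − strand: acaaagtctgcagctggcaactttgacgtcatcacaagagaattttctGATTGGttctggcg
The letters between the motifs number 21 in *H2-Eb1* and in *H2-Eb2* and 19 in *H2-Ob*. *H2-DMb1* held the same pair 22 letters apart. *H2-Aa* and the related gene *H2-Oa* held GATTGG without AACNNNTG at this distance before it. Read on both strands, AACNNNTG was found in 35.6% and GATTGG in 16.1% of the 32851 promoter windows of 300 bases in the table. The pair on 1 strand with 10 to 40 letters between was found in 0.527% of them. The motifs do not overlap each other, and a match is a description of the sequence, not a measured site. The windows of *H2-DMa* lay 9664 and 12350 bases from the start of the deposited gene and were not used, and *H2-Ab1*, *Cd74* and *Ciita* had no entry.

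The 7 genes were at a low level in every library, and *H2-Aa* and *Ciita* had a count of 0 in 3 and 4 of the 6 (plot of the class II genes by library). As CPM of the library total, the 7 summed to 7.82, 7.24 and 7.37 in the KO-labelled libraries and 8.31, 6.45 and 6.81 in the WT-labelled ones. Levels were compared between genes as TMM-normalized CPM per kilobase of exon, which corrects for gene length. On this scale *Cd74*, which encodes the invariant chain, was highest, with a mean over the 6 libraries of 1.04 ± 0.317 (SD). It was followed by the H2-DM chains *H2-DMb1* at 0.903 ± 0.323 and *H2-DMa* at 0.744 ± 0.227. The classical β chains came next, *H2-Eb1* at 0.376 ± 0.0927 and *H2-Ab1* at 0.249 ± 0.114. The α chain *H2-Aa*, at 0.0274 ± 0.0316, and *Ciita*, at 0.00232 ± 0.00359, were lowest. The ranges of neighbours in this order overlapped, except that the lowest library for *H2-Ab1* (0.0875) was above the highest for *H2-Aa* (0.0678). Even *Cd74* was above only 44.0% of the 20726 genes that had a count and a length, and *H2-Aa* was above 13.5%. On the deposited FPKM, which rests on other gene lengths, *H2-DMa* was highest instead, with a mean of 1.23 against 0.992 for *Cd74* in the KO-labelled libraries, and it was above *Cd74* in the WT-labelled ones too. By their means, both scales placed the invariant chain and H2-DM over the chains that present peptide. Single libraries could break this order. In the third library labelled KO, *H2-Eb1* (0.497 CPM per kilobase, FPKM 0.826) was above *H2-DMa* (0.467, FPKM 0.740). The α chain of H2-A was nearly uncounted while its β partner was counted in each library.

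**Figure D1:**
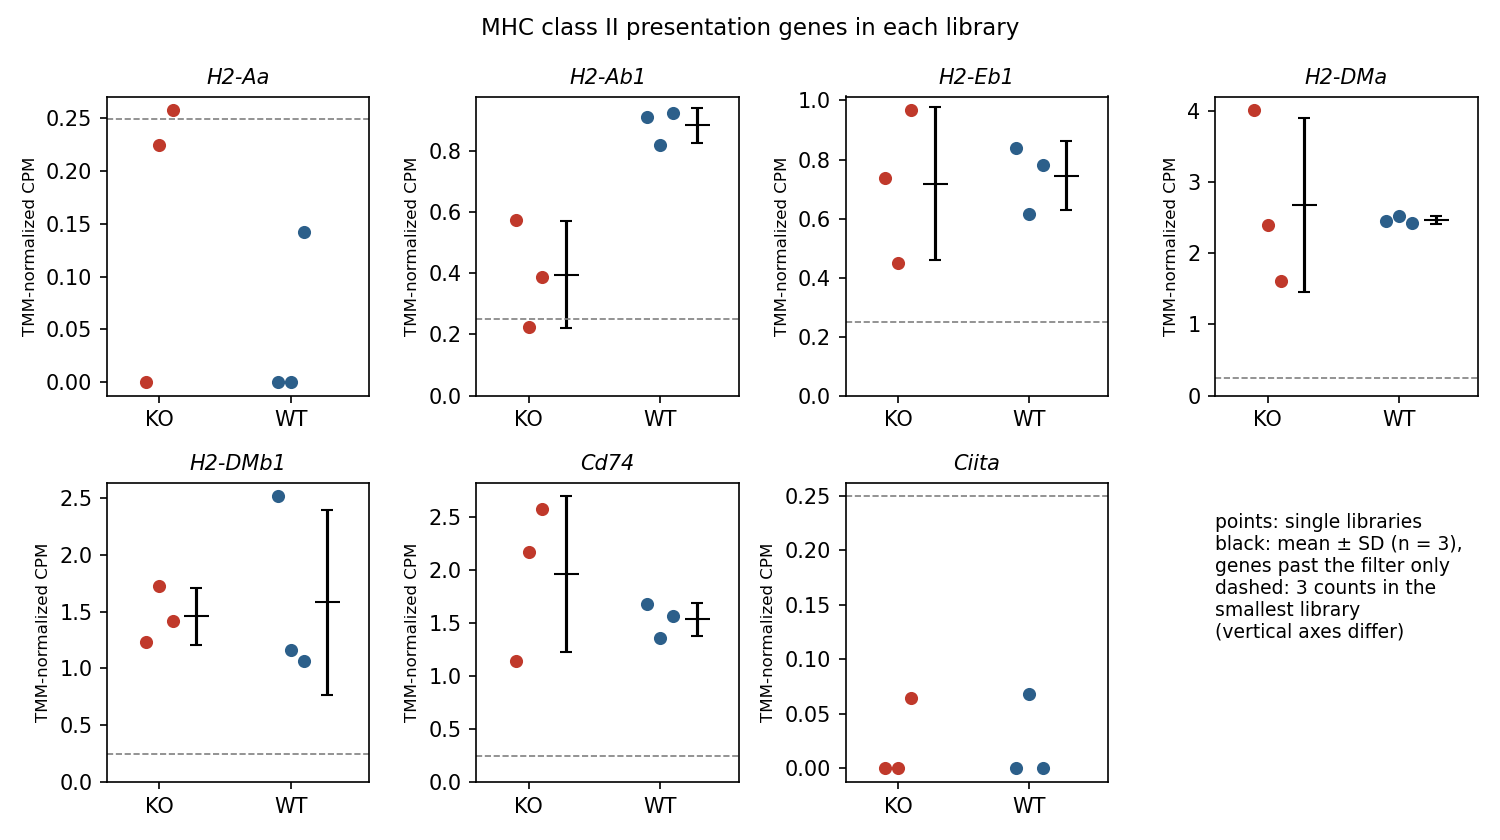
TMM-normalized CPM (vertical axes, which differ between panels) of the 7 genes in the KO-labelled libraries (red) and WT (blue), with the mean ± SD of 3 libraries in black for the 5 genes that passed the expression filter and a dashed line at 3 counts in the smallest library (0.249 CPM). The labels overlap for each gene except *H2-Ab1*, and *Ciita* stays under the dashed line in every library.

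The lysosomal and class I genes in the same libraries give the scale. Summed over members, the class II genes reached 2.87 to 3.99 CPM per kilobase in a library, whereas the 15 class I and peptide loading genes reached 2086 to 2323, between 552 and 726 times as much. Most of the latter sum came from *B2m*, *Calr* and *Pdia3*, with means over the 6 libraries of 940, 498 and 328. The means of *H2-D1* and *H2-K1* were 160 and 90.1. The 12 macrophage markers reached 805 to 1062 CPM per kilobase, between 226 and 347 times the sum of the class II genes, and *Lyz2*, which encodes a lysozyme, alone made up 617 to 876 of it. Among the macrophage markers only *Mrc1*, at a mean of 0.436, was below the means of *Cd74* and both H2-DM chains. Its range of 0.242 to 0.590 overlapped that of *H2-DMa*, whose lowest library was at 0.467. The next lowest macrophage marker, *Fcgr1*, had a mean of 2.81. The 8 lysosomal genes that process antigen or the invariant chain were each above the 7 members in every library on this scale, the lowest of them, *Sppl2a*, at 8.93 or more.

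**Figure D2:**
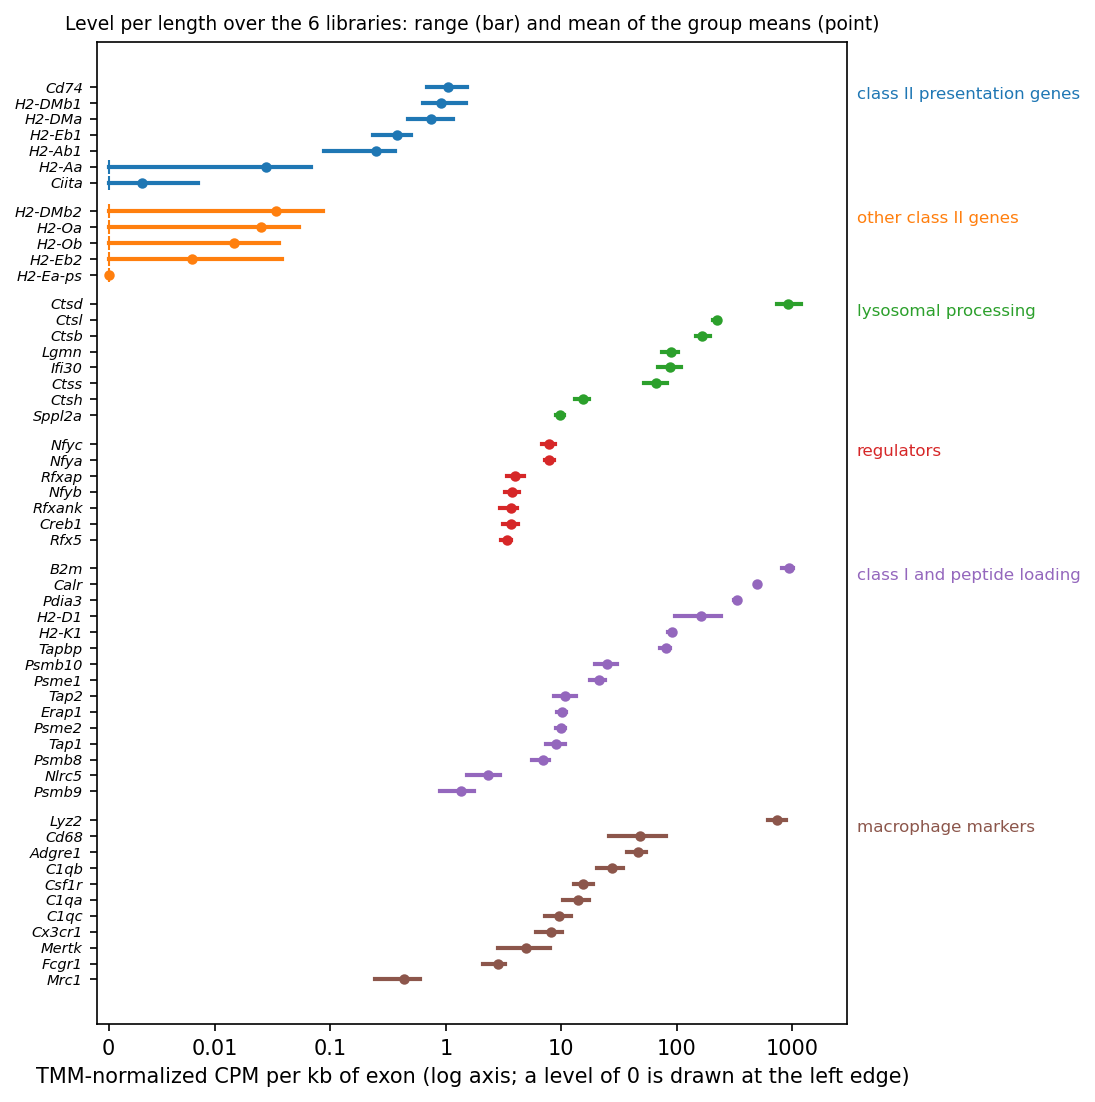
Level per length (horizontal log axis, TMM-normalized CPM per kilobase of exon) of class II genes, related genes and macrophage markers, with the range over the 6 libraries as a bar and the mean as a point. The highest member, *Cd74*, lies at 0.682 to 1.53 and overlaps the class I list genes *Psmb9* and *Nlrc5* but no lysosomal or regulator gene, and *Itgam*, listed under 2 identifiers, is left out.

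*H2-Ab1* (ENSMUSG00000073421, chromosome 17 from 34263209 to 34269418 in mm10) encodes the β chain of H2-A. It had 7, 3 and 6 counts in the KO-labelled libraries and 13, 12 and 13 in the WT-labelled ones. All 3 libraries labelled KO were below all 3 labelled WT, and this was the member whose groups did not overlap. In normalized values it was at 0.395 ± 0.174 CPM (SD, n = 3) against 0.884 ± 0.0571. The log2 fold change was -1.16 with a standard error of 0.40 and a 95% interval of -2.07 to -0.25, and the adjusted p of 0.0580 from edgeR was above the threshold of 0.05. The summed counts, 16 against 38, gave a ratio of 0.451 with a counting interval of 0.235 to 0.829. The gene reached the expression filter in 0 libraries labelled KO and in all 3 labelled WT, so it entered the test only through the group in which it was higher. The adjusted p fell under the threshold with upper quartile scaling (0.0489) and with limma on log2(FPKM + 1) or log2(FPKM + 0.1), which gave 0.0319 and 0.0307, and it was 0.237 with DESeq2. Over the 14 alternatives in which the gene was tested, the log2 fold change ran from -1.47 to -0.23, the latter on the log2(FPKM + 1) scale, which understates the change of low genes, and the adjusted p from 0.0307 to 0.237.

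*H2-Aa* (ENSMUSG00000036594, chromosome 17 from 34282744 to 34287827), the α chain that pairs with it, had 0, 3 and 4 counts in the KO-labelled libraries and 0, 0 and 2 in the WT-labelled ones. It did not pass the filter and was not tested. The sums of 7 and 2 counts gave a ratio of 3.75, whose counting interval of 0.715 to 37.0 holds values on both sides of 1. *H2-Eb1* (ENSMUSG00000060586, chromosome 17 from 34305877 to 34316199), the β chain of H2-E, had 9, 6 and 15 counts against 12, 9 and 11. The highest and the lowest of these were both in KO-labelled libraries. Its log2 fold change was -0.03 with an interval of -0.90 to 0.83 (adjusted p = 0.955 from edgeR), so that a level between 0.535 and 1.78 times that of WT was within the interval. The gene of its α partner, listed as the pseudogene *H2-Ea-ps*, had a count of 0 in all 6 libraries.

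*Cd74* (ENSMUSG00000024610, chromosome 18 from 60803848 to 60812646) had 14, 29 and 40 counts in the KO-labelled libraries and 24, 20 and 22 in the WT-labelled ones. The lowest and the 2 highest values were all in KO-labelled libraries. In normalized values it was at 1.97 ± 0.739 against 1.54 ± 0.159 CPM (SD, n = 3). The log2 fold change of 0.38 had an interval of -0.36 to 1.11 (adjusted p = 0.412 from edgeR), which allows from 0.781 to 2.15 times the WT level. It was above 0 under each of the 15 alternatives, from 0.13 to 0.75, and passed the threshold under none of them.

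H2-DM is a class II look-alike that does not present peptide but edits what the other molecules carry. Its α chain *H2-DMa* (ENSMUSG00000037649, chromosome 17 from 34135182 to 34139101) had 49, 32 and 25 counts in the KO-labelled libraries and 35, 37 and 34 in the WT-labelled ones, and both groups summed to 106. The values labelled WT lay close together and inside the range of those labelled KO. The log2 fold change was 0.09 with an interval of -0.64 to 0.83 (adjusted p = 0.849 from edgeR). Without the first library labelled KO, which held the highest value, it was -0.30. The β chain *H2-DMb1* (ENSMUSG00000079547, chromosome 17 from 34153072 to 34160230) had 15, 23 and 22 counts against 36, 17 and 15, so that a single library labelled WT was above the rest. Its log2 fold change was -0.11 with an interval of -0.98 to 0.75 (adjusted p = 0.844 from edgeR), and it was 0.39 without that library. The pair did not move in the same order across libraries, since *H2-DMa* was highest in the library labelled KO in which *H2-DMb1* was lowest of its group. *H2-DMb1* shares 22.7% of its 50-base stretches with *H2-DMb2* and *H2-DMa* shares 8.43% with *Brd2*, so reads from those stretches could be assigned to either gene.

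*Ciita* (ENSMUSG00000022504, chromosome 16 from 10488178 to 10527564) had 0, 0 and 1 counts in the KO-labelled libraries and 0, 1 and 0 in the WT-labelled ones. Any difference was not detectable at this depth, since the ratio of the sums had a counting interval of 0.0137 to 84.2. The gene shares 329 exon bases with *Dexi* on the other strand, which had 93 to 155 counts in a library. Whether the counting used strand is not given in the sources used here. The DNA-binding partners of CIITA were counted at 2.93 to 8.82 CPM per kilobase. Of 7 genes for the RFX complex, the NF-Y complex and CREB1, 1 was higher and 0 were lower past the threshold, and the median of their log2 fold changes was 0.14, whereas macrophage scaling called 5 higher and 0 lower with a median of 0.51. The higher gene was *Creb1*, at 55.4 ± 2.15 against 44.7 ± 1.88 CPM (SD, n = 3; log2 fold change 0.31, adjusted p = 0.00749 from edgeR). *Rfxank*, a subunit of RFX, had the lowest log2 fold change of the list, -0.27, with an adjusted p of 0.0976 from edgeR. Without the first library labelled KO the number of higher genes was 2, *Creb1* and the NF-Y subunit *Nfya*, the latter at 0.22 with an adjusted p of 0.0309 from edgeR.

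The remaining class II genes were as low as the members or lower. Of the 5 found in the table, 0 passed the filter. *H2-DMb2*, another H2-DM β chain, had 0, 2 and 0 counts against 1, 2 and 0. *H2-Oa* and *H2-Ob* encode H2-O, which holds back H2-DM in B cells, and had at most 1 and 3 counts in a library. *H2-Eb2* had 0, 0 and 2 counts against 0, 0 and 0. Of the genes whose promoters hold both sets of letters in the lines above, *H2-Eb1* was at a mean of 0.376 CPM per kilobase, and *H2-Eb2* and *H2-Ob* were at no more than 0.0380 and 0.0359 in any library.

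Of the 5 members tested, edgeR called 0 at an adjusted p of 0.05, against 30.2% of the 14084 genes tested in this comparison. By direction, 17.7% of all genes were called higher and 12.5% lower in the KO-labelled libraries, and scaling on the macrophage markers turned these counts from 2488 and 1760 into 8153 and 60. At an unadjusted p of 0.05, 1 member passed in edgeR, which was *H2-Ab1*, as did 5833 of the 14084 genes tested, while DESeq2 called 0 members after adjustment and limma on FPKM called 1. The groups did not overlap for 1 of the 5 members and for 47.0% of the genes tested. The median log2 fold change was -0.03 over the 5 members and -0.02 over all genes. Neither is support for the members as a set, because *H2-Ab1* passed the filter through 1 group only and *H2-Aa* and *Ciita* are missing from both.

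The sum of the 7 members in CPM of the library total was 7.48 ± 0.303 (SD, n = 3) in the KO-labelled libraries and 7.19 ± 0.989 in the WT-labelled ones, and the groups overlapped. An exact two-sided permutation test over the 6 libraries gave p = 0.7. The same sum was also set against the macrophage markers in place of the whole library. For every 1000 counts of the 12 macrophage markers the members had 5.95, 5.48 and 5.68 counts in the KO-labelled libraries and 5.02, 4.16 and 4.24 in the WT-labelled ones. These values did not overlap, and the exact two-sided permutation test gave p = 0.1, which is the smallest p that 3 libraries against 3 can give. *Lyz2* held 62.9% to 69.0% of the counts of these markers. Without it, a choice made after seeing the data, the members had 16.0, 15.7 and 15.5 counts in the KO-labelled libraries and 16.2, 13.0 and 13.2 in the WT-labelled ones for every 1000, so that the groups overlapped (p = 0.4, exact two-sided permutation test). The macrophage markers themselves differed between the labels. *Itgam*, whose counts are split over 2 identifiers that were both tested and not called, was left out of this count. Of the other 11, 7 were lower and 2 higher in the KO-labelled libraries, beside 12.5% lower and 17.7% higher over all genes tested. The median log2 fold change of the 11 was -0.40. When the libraries were scaled on these markers, 0 were lower and 2 higher. The higher genes were *Cd68*, a lysosomal protein of macrophages, at 87.9 ± 11.6 against 33.6 ± 1.37 CPM (SD, n = 3), and *Mertk*, a receptor for dying cells, at 28.7 ± 4.96 against 14.0 ± 1.87. A shift of this size was not particular to macrophage markers. All 8 fibroblast markers were called lower (median log2 fold change -0.41), as were 6 of the 7 cardiomyocyte markers tested (-0.42). All 8 endothelial markers were called higher (2.43). On macrophage scaling 0 fibroblast and 0 cardiomyocyte markers were called lower. The part of the macrophage markers in the members' values was not tested.

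**Figure D3:**
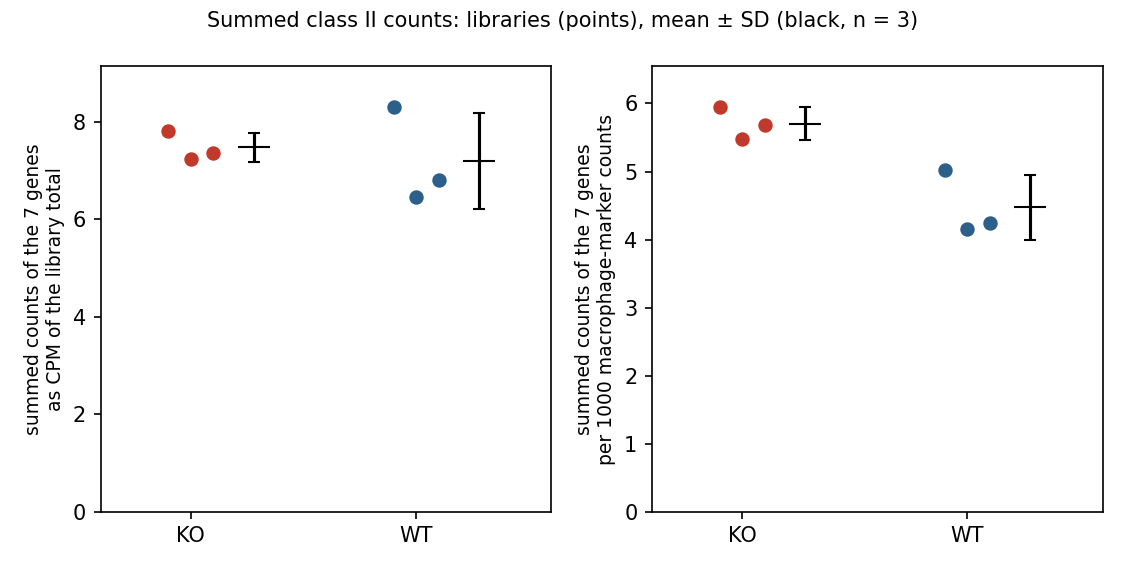
Summed counts of the 7 class II presentation genes as CPM of the library total (left) and per 1000 counts of the 12 macrophage markers (right) in each library, with the mean ± SD of 3 libraries in black. The labels overlap on the left, and on the right the 3 libraries labelled KO, at 5.48 to 5.95, lie above the 3 labelled WT, at 4.16 to 5.02.

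Markers of the other cells that make class II molecules at rest were mostly at or near 0. Of 9 dendritic cell markers, *Clec9a*, *Cd209a* and *Siglech* had a count of 0 in all 6 libraries, and *Flt3* and *Ccr7* did not pass the filter. The list summed to 27.8 to 31.0 CPM in the KO-labelled libraries and 19.2 to 23.0 in the WT-labelled ones, most of it from *Zbtb46*, a transcription factor also made by endothelial cells. Of the 3 dendritic cell markers tested, 2 were higher, *Zbtb46* by 0.49 and *Batf3* by 2.75 on the log2 scale, and *Itgax* was at -0.14 and not called. *Batf3* reached the filter in all 3 libraries labelled KO and in 1 labelled WT, so it was tested only through its higher group. The 6 B cell markers summed to 2.06 to 3.60 CPM against 1.19 to 2.99. The T cell genes *Cd3e*, *Cd3d*, *Cd3g* and *Cd8a* had a count of 0 in all 6 libraries, and *Cd4* had 3 to 5 counts in each. The T cell kinase gene *Lck* was the T cell marker that passed the filter, and it was higher, with 73, 64 and 89 counts in the KO-labelled libraries against 39, 50 and 43 (0.84 on the log2 scale, edgeR adjusted p = 0.00752). Of 3 neutrophil markers tested, 2 were higher, *S100a8* by 2.99 and *S100a9* by 1.95 on the log2 scale, and *Csf3r* was at -0.41 and not called (edgeR adjusted p = 0.308). *S100a8* reached the expression filter in 1 library labelled WT and *S100a9* in 0, so both were tested only through the group in which they were higher. Among those not tested, *Ly6g* had 15, 10 and 7 counts against 0, 0 and 0, and *Cxcr2* had 0, 1 and 1 against 0, 5 and 3. Of the monocyte markers only *Plac8* was tested, and it was lower, at -0.41 on the log2 scale (edgeR adjusted p = 0.0346), while on macrophage scaling it was at -0.04 and not called. The part of these cells in the members' values was not tested.

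IFN-γ is the classical inducer of *Ciita* outside the cells that make class II molecules at rest. *Ifng* itself had a count of 0 in all 6 libraries. Of 8 tested genes of its receptor and signaling pathway, 2 were higher and 2 lower in the KO-labelled libraries, and the median of their log2 fold changes was -0.03, against 4 higher and 0 lower and a median of 0.34 with macrophage scaling. Both receptor chains were lower, *Ifngr1* at 51.9 ± 4.51 against 66.1 ± 2.17 CPM and *Ifngr2* at 88.2 ± 3.94 against 113 ± 2.39 (SD, n = 3), with log2 fold changes of -0.35 each and adjusted p of 0.00895 and 0.00191 from edgeR, although on macrophage scaling both were at 0.02 and not called. The kinase gene *Jak2* was higher by 0.49 and *Irf8*, a transcription factor of myeloid cells, by 0.68 on the log2 scale.

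The lysosomal genes that prepare the groove changed in both directions. Of 8 tested, 3 were higher and 4 lower in the KO-labelled libraries, and the median log2 fold change was -0.07. With macrophage scaling 5 were higher and 0 lower, at a median of 0.30. *Ctss* encodes cathepsin S, the protease that makes the last cut in the invariant chain in dendritic and B cells. It was at 73.3 ± 3.05 against 106 ± 6.84 CPM (SD, n = 3), a log2 fold change of -0.53 with an adjusted p of 6.94e-04 from edgeR, and its groups did not overlap. *Ifi30*, which opens disulfide bonds of antigens, was lower by 0.42 and *Ctsh*, an aminopeptidase, by 0.35 on the log2 scale, and with macrophage scaling *Ctss*, *Ifi30* and *Ctsh* were no longer called, at -0.16, -0.05 and 0.02. *Sppl2a* cleaves what is left of the invariant chain in the membrane, and its log2 fold change of -0.18 had an adjusted p of 0.0343 from edgeR. Of the 6 fits without 1 library, the call was kept in the fit without the second library labelled KO, with adjusted p of 0.0620 to 0.103 in the others. It was kept in 2 of 9 other alternatives, those with a mean CPM of at least 1 and with upper quartile scaling, with adjusted p of up to 0.120 in the rest that kept the sign, and on macrophage scaling the gene was higher at 0.19. *Ctsd*, cathepsin D, was higher, at 2581 ± 193 against 1757 ± 12.8 CPM. *Lgmn*, an asparaginyl endopeptidase, was higher by 0.36 and *Ctsb*, cathepsin B, by 0.30 on the log2 scale. *Ctsl*, the cathepsin that trims the invariant chain in thymic epithelium, had a log2 fold change of 0.03 (adjusted p = 0.653 from edgeR).

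Costimulatory genes supply the further signal a T cell needs beside the class II complex. Of 7 tested, 0 were higher and 1 lower in the KO-labelled libraries, and the median of their log2 fold changes was -0.07, against 3 higher and 0 lower and a median of 0.30 with macrophage scaling. The lower gene, *Cd80*, was at 8.77 ± 1.48 against 12.6 ± 1.35 CPM (SD, n = 3), a log2 fold change of -0.52 with an adjusted p of 0.0344 from edgeR. The call was lost without the first or the second library labelled KO (0.0933 and 0.0771) and without the first or the second labelled WT (0.103 and 0.0900), it was lost with limma on log2(FPKM + 0.1) (0.0554), and on macrophage scaling the log2 fold change was -0.14. *Cd83* had the highest log2 fold change of the list, 0.35, with an interval of -0.94 to 1.63 and 4 to 15 counts in a library.

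The class I genes present peptides of the cell's own proteins and were counted far above the class II genes. Of 15 tested, 1 was higher and 1 lower in the KO-labelled libraries, and the median of their log2 fold changes was -0.05. With macrophage scaling 12 were higher and 0 lower, at a median of 0.32. *H2-D1*, a class I heavy chain, had 7597, 6562 and 8611 counts in the KO-labelled libraries and 3990, 3662 and 4030 in the WT-labelled ones. The groups did not overlap, and the log2 fold change was 1.03 with a standard error of 0.09 and an adjusted p of 1.09e-04 from edgeR. *H2-D1* shares 12.8% of its 50-base stretches with other genes, most often with the class I gene *H2-Q1*, so some of its reads could belong to them. The other heavy chain, *H2-K1*, had a log2 fold change of -0.06 with an interval of -0.19 to 0.07, and *B2m*, the light chain, had -0.02 with an interval of -0.21 to 0.17. *Nlrc5*, the counterpart of CIITA for class I genes, had 191 to 369 counts in a library and a log2 fold change of 0.38 (adjusted p = 0.134 from edgeR). *Psmb10*, an immunoproteasome subunit, was lower by 0.34 on the log2 scale (adjusted p = 0.0364 from edgeR), a call that was lost without the second or the third library labelled KO (0.0957 and 0.0895) and without the first or the third labelled WT (0.116 and 0.0929) as well as with library size scaling (0.0593) and limma on either FPKM scale (0.0730 and 0.104), and on macrophage scaling the gene was at 0.03. The class I list had 2 higher genes without the second library labelled KO or the first labelled WT, and also with library size scaling and limma on either FPKM scale. It had 2 lower without the second library labelled WT and with upper quartile scaling. Over these lists, 15 of 45 tested genes were called, beside 30.2% of all genes tested, and 12 of the 15 calls were kept whichever single library was left out.

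The genes whose profile over the 6 libraries was nearest to the mean profile of the 5 tested members were *Capn7*, *Gpat4*, *1110004F10Rik*, *1110059G10Rik* and *Wwp2*, among 11289 genes whose FPKM averaged 1 or more. The root mean square difference in centred log2(CPM + 1) was 0.0249 for *Capn7* and 0.0327 for *Wwp2*, and none of the 5 was called by edgeR. The members' mean profile stood at 0.16 in the first library labelled WT and below 0 in the other 5, at the lowest -0.07. Adding 1 to a CPM this low flattens differences, and members that move in opposite directions cancel in the mean. Single members varied more, with *H2-DMa* at 1.61 to 4.01 CPM and *H2-Ab1* at 0.225 to 0.924 CPM. Nearness to the mean profile therefore does not describe single members.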

How the data were processed

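RNA of 6 samples was sequenced as stranded, oligo(dT)-enriched libraries in 150 bp paired-end reads, and per the labels and the paper's methods the authors mapped them to mm10 with HISAT2. The submitters' processing notes also name edgeR. The counting tool, annotation release and strand setting are not given in the sources used here. The authors deposited raw counts per gene and FPKM values per library. The gene length that the deposited FPKM values imply exceeded the gene's own locus for 5.25% of genes, so levels between genes were computed from counts per kilobase of GENCODE M21 exon. The test was edgeR's quasi-likelihood test (version 4.0.16, R 4.3.3; default expression filter, TMM, Benjamini-Hochberg adjustment over 14084 genes, no covariate), and the standard error came from the fold change and its F statistic. The members, gene lists and marker lists were chosen with earlier results of these data known. The text names the 7 members, list genes past the threshold or at the ends of a list, *Kdm5b*, and the 5 genes nearest in profile. *Ctsl*, *H2-K1*, *B2m* and *Nlrc5* were added for their roles, and marker genes as examples, after their values were seen. The alternatives were DESeq2 1.42.0, limma 3.58.1 on FPKM, other scalings and filters, a replicate block and each library left out. The tests were tested on simulated data. Counting intervals are exact Poisson or binomial, at 95%, and cover counting error only. The other genes of the lists enter only counts and sums, and some are not reported here.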

Additional observations from a re-analysis of the deposited data

How the results depend on the processing

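The 95% interval of the log2 fold change excluded 0 for *H2-Ab1*, which entered the test only through the group in which it was higher. At the matching unadjusted p of 0.05, 5833 of the 14084 genes tested passed in edgeR. The interval included 0 for the other 4 tested members, of which 3 changed sign under an alternative. *H2-Eb1* was at 0.34 with macrophage scaling, 0.22 without KO replicate 2 and 0.06 without WT replicate 1. *H2-DMb1* was at 0.26 with macrophage scaling, 0.0063 with limma on log2(FPKM + 0.1) and 0.39 without WT replicate 1, and *H2-DMa* was at -0.30 without KO replicate 1. Leaving out 1 library gave -0.33 to 0.22 for *H2-Eb1*, -0.33 to 0.39 for *H2-DMb1* and -0.30 to 0.38 for *H2-DMa*. *Kdm5b* was at 0.15 with macrophage scaling, which moved the median of all genes to 0.35. Relative to that median the members were at -1.15 (*H2-Ab1*), -0.10 (*H2-DMb1*), -0.02 (*H2-Eb1*), 0.10 (*H2-DMa*) and 0.39 (*Cd74*). The number of members called was 1 with upper quartile scaling and with limma on either FPKM scale, and 0 without any single library. With every gene that had a count tested, *H2-Aa* had a log2 fold change of 1.67 (adjusted p = 0.457 from edgeR) and *Ciita* of 0.04 (adjusted p = 0.990). With a mean CPM of at least 1 required, 3 members were tested and 0 called. Macrophage scaling called 8213 of all genes in place of 4248 and 29 of the list genes in place of 15. Genes called lower numbered 1158 with limma on log2(FPKM + 0.1) and 1131 without KO replicate 3, against 1760. Leaving out 1 library gave 3152 to 4122 calls over all genes and 13 to 14 over the lists. With the replicate block the lowest adjusted p among members was 0.0968 and 0 were called, while *Kdm5b* was called lower (0.0271) and the calls of *Cd80* (0.0737) and *Sppl2a* (0.0541) were lost, and 2 class I list genes in place of 1 were higher. Libraries of the same number did not pair, since their deviations correlated at 0.017 to 0.031, although each library labelled KO correlated best with its own number. The counting interval of the ratio of summed counts included 1 for each member except *H2-Ab1*. Depth limits the members of fewest counts, since this interval was widest for *Ciita* (0.0137 to 84.2) and *H2-Aa* (0.715 to 37.0). For every 1000 macrophage counts, with *Lyz2* left out of the markers, an alternative chosen after seeing the data, the members' sum was 1.64 higher in KO (p = 0.4, exact permutation test), against 1.23 with it.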
